A study of Mus musculus with 2 samples.

Results

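The FoxO-type quiescence and atrophy genes described here are 10 genes, namely Fbxo32, Klhl24, Mxd4, Ccng2, Sesn1, Sesn3, Irs2, Pik3ip1, Cited2 and Foxo1, out of 37074 gene names on the array. They were chosen by their ratios on these same arrays together with what is known of them, so their ratios are given as a description and with no test. The array carried 18 probes for them out of 56605, each printed at 1 spot. RNA came from mDE6, a line of odontogenic epithelial cells of the mouse, after 6 h with CHIR99021 or with the vehicle DMSO, and 1 array was hybridised for each condition. The dose is 5 mM in the sample label and 5 μM in the methods, which also call the control untreated. No difference between the conditions therefore has a replicate check, and the number of arrays limits the precision. CHIR99021 is an inhibitor of GSK-3, the kinase that marks β-catenin for degradation, and it was used to activate the β-catenin pathway.

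FoxO proteins are forkhead transcription factors that act when growth factor signals are low. Insulin and related ligands activate PI3K and then the kinases Akt and SGK, which phosphorylate FoxO proteins and keep them out of the nucleus. When these kinases are idle, FoxO proteins switch on genes for cell cycle exit, protein breakdown, autophagy and feedback onto the insulin pathway, and in wasting skeletal muscle Fbxo32 is the classical marker of this programme.

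The genes with the lowest ratios were read by the following probes of 60 bases, shown here because every value below rests on what these sequences bind. The first 30 bases of each are given 5′ to 3′, with the position of the probe in mm9, the build named in the file headers. The files name the gene and the transcript of a probe but not the exon.
Fbxo32, A_66_P135285, chr15:58007497-58007556, minus strand: tatttgcacacctttcttgcatgatgaact
Klhl24, A_51_P168439, chr16:20128804-20128863, plus strand: aatgttaactgaggttgttgcttggagttt
Mxd4, A_52_P230650, chr5:34516836-34516895, minus strand: agcttgcctttctaggcagatggagttgtg
Mxd4, A_51_P148865, chr5:34520307-34520366, minus strand: agcttcagcgggaacatcgcttcctaaaga
Cited2, A_51_P105837, chr10:17445203-17445262, plus strand: cctcccccatatgtacagacaataataggg

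Signals below are processed intensities in arbitrary units, as deposited. A ratio is the CHIR99021 signal over the control signal with both scaled to the upper quartile of their own array (the 75th percentile, 486.7 in control and 469.17 in CHIR99021-treated cells). A gene is represented by its probe with the highest mean signal among those well above background on at least 1 array. It is called lower at a ratio of at most 0.66 and higher at a ratio of at least 1.5. The study set the limit of 0.66 together with a Z-score limit, so calls by ratio alone are wider than its rule. Among 282 probes printed 10 times, the SD of the log2 ratio between spots had a median of 0.03, which covers spot error only and not variation between cultures.

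The 10 genes shared a direction but differed widely in size. All of them had a ratio below 1, as did 46.6% of the 18837 tested gene names. Of the 10, 7 were lower and 3 lay between the limits, whereas 9.67% of all tested gene names were lower. The study also asked for a Z-score, taken here as at most -2.0 among the 500 probes nearest in signal. With both criteria the same 7 genes were lower, against 3.22% of gene names. None of the 10 was higher, a call made for 8.05% of gene names. Their median log2 ratio was -0.86, beside 0.02 over all tested gene names. Because the choice of the genes used these ratios, nothing is read from these counts. All 10 were well above background on both arrays at the probe used.

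**Figure D1:**
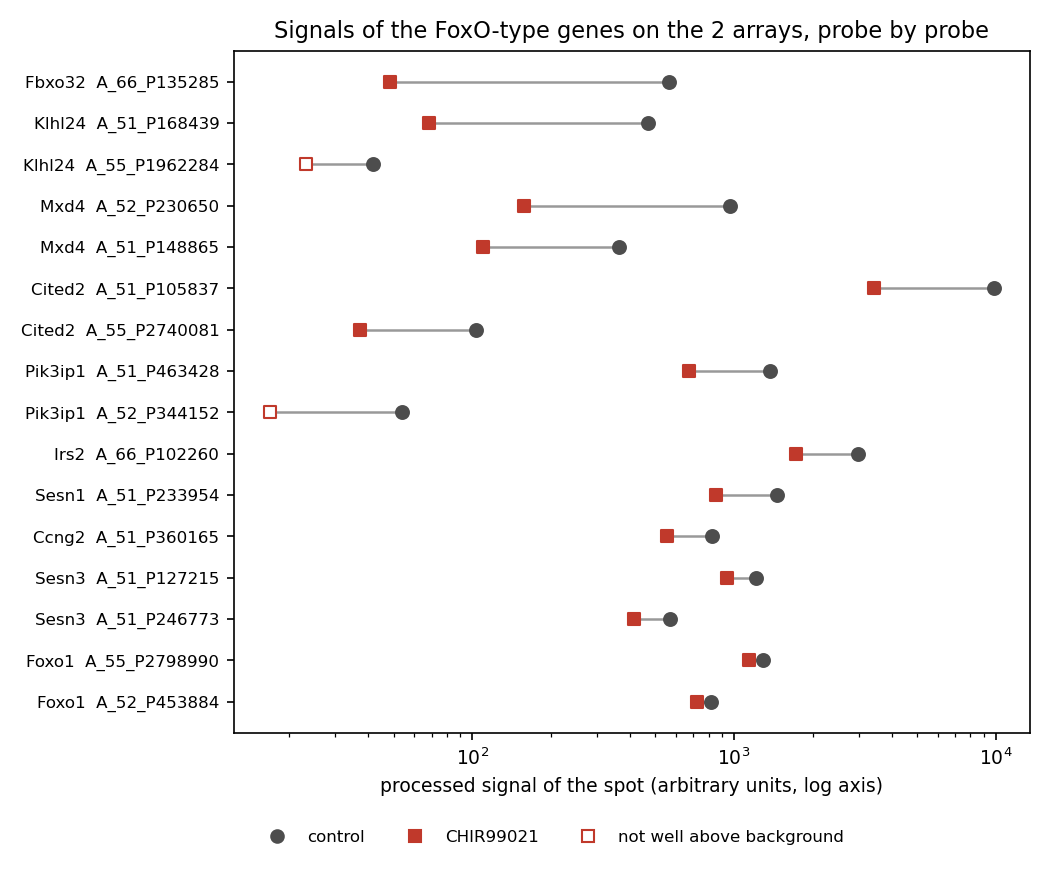
Processed signal (arbitrary units, log axis) at each of the 16 tested probes of the FoxO-type genes, with a circle for the control array, a square for the CHIR99021 array and an open symbol where the spot was not well above background. The CHIR99021 square lies left of the control circle at all 16 probes, with the longest line at Fbxo32 (565 to 48.6) and the shortest at Foxo1 (1293 to 1146 and 816 to 720.03).

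Fbxo32 and Klhl24 encode substrate adaptors of ubiquitin ligases, and both were called lower, Fbxo32 with the lowest ratio of the 10. Fbxo32 is the F-box protein atrogin-1, which directs muscle proteins to degradation. Its signal was 565 in control and 48.6 in CHIR99021-treated cells, a ratio of 0.0893, or 11.2-fold lower. At the probe used for each gene, this was the lowest ratio among the 16886 gene names well above background on both arrays. The CHIR99021 signal stood above 26.3, the dimmest signal well above background on that array. With normexp background correction the ratio was 0.174. Fbxo32 has no other probe on the array.

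Klhl24 is a kelch protein that links targets such as keratin 14 to a Cullin-3 ubiquitin ligase. Its brighter probe gave 471 in control and 68.4 in CHIR99021-treated cells, a ratio of 0.151. That ratio was the 7th lowest among the 16886 gene names. The dimmer probe of Klhl24, A_55_P1962284, gave 41.7 in control cells and 23.1, not well above background, in treated cells. It was at least 1.53-fold lower there, so that its size cannot be set beside the 6.63-fold of the first probe. With normexp background correction the ratio of Klhl24 was 0.260.

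Mxd4 and Ccng2 are linked to the slowing of the cell cycle, and only Mxd4 was called lower. Mxd4 pairs with Max on E-boxes and opposes Myc. Its brighter probe gave 968 in control and 158 in CHIR99021-treated cells, a ratio of 0.169 and the 9th lowest of the 16886 gene names. The other probe of Mxd4 gave 364 and 110.25, a ratio of 0.315. Both probes were well above background on both arrays and lay on the same side, while their ratios differed by 1.86-fold. Ccng2 encodes cyclin G2, an unusual cyclin found in arrested cells. Its signal was 827 in control and 552 in CHIR99021-treated cells, a ratio of 0.693, just outside the limit of 0.66. A further Ccng2 probe did not stand well above background in control or treated cells.

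Sesn1 and Sesn3 encode sestrins, stress-induced proteins that restrain the growth kinase mTORC1 through the GATOR complexes. The signal of Sesn1 was 1461 in control and 856 in CHIR99021-treated cells, a ratio of 0.608. Sesn3, which is a known FoxO target, gave 1209 and 939.6 at its brighter probe, a ratio of 0.806. The other Sesn3 probe gave 569.7 and 414, a ratio of 0.754. Sesn1 was therefore called lower, and neither Sesn3 probe was.

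Irs2 and Pik3ip1 act on the insulin and PI3K pathway from opposite sides. Irs2 is an adaptor that couples the insulin receptor to PI3K, and its gene is a FoxO target through which starved cells regain insulin sensitivity. Its signal was 2979 in control and 1725 in CHIR99021-treated cells, a ratio of 0.600. Pik3ip1 is a membrane protein that inhibits PI3K, and its brightest probe gave 1375 and 674, a ratio of 0.508. A dimmer Pik3ip1 probe, A_52_P344152, gave 54.1 in control cells and 16.9, not well above background, in treated cells, and was at least 1.98-fold lower. The third Pik3ip1 probe did not stand well above background on any array.

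Cited2 binds the coactivators CBP and p300 and thereby competes with HIF-1α. Its brighter probe gave 9819.6 in control and 3422 in CHIR99021-treated cells, a ratio of 0.361. The other probe gave 103 and 37.2, a ratio of 0.374. These probes, in rows 58 and 377 of the array, differed by 1.03-fold in ratio, where the 4 genes that both arrays measured at more than 1 probe ran from 1.00-fold for Foxo1 over 1.07-fold for Sesn3 to 1.86-fold for Mxd4.

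Foxo1, the transcription factor itself, differed least. Its brighter probe gave 1293 in control and 1146 in CHIR99021-treated cells, a ratio of 0.919. The other probe gave 816 and 720.03, a ratio of 0.915. Neither probe came near the limit of 0.66. These values are for Foxo1 mRNA, and the location or phosphorylation of the protein was not measured on these arrays.

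**Figure D2:**
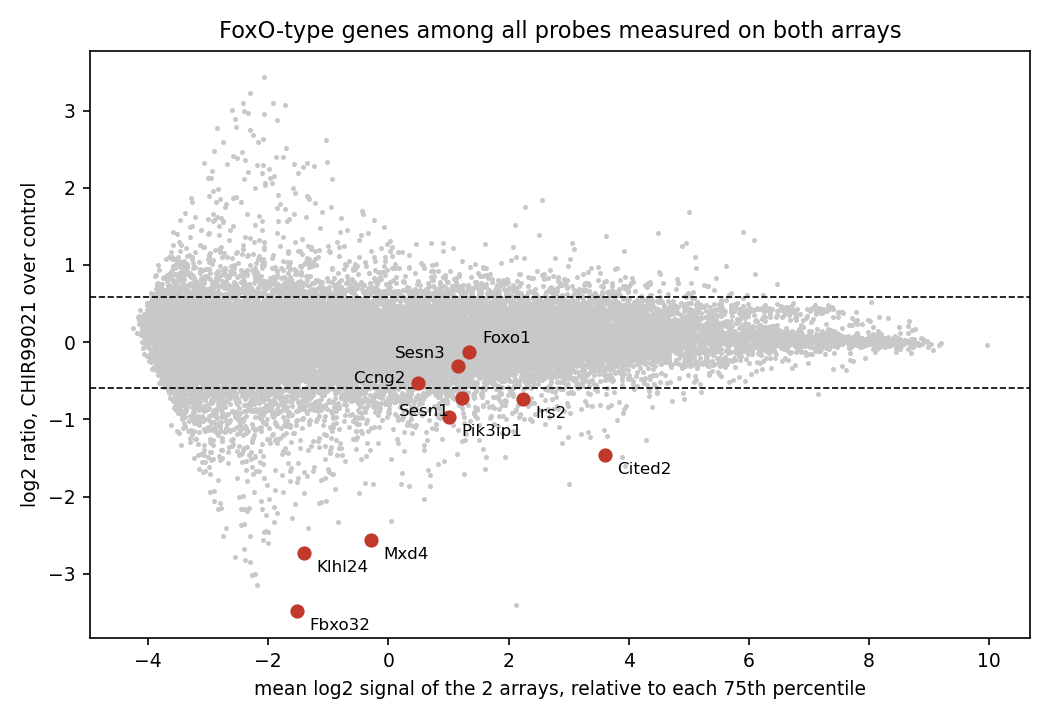
Log2 ratio of CHIR99021 over control against the mean log2 signal, relative to each array's 75th percentile, for all probes well above background on both arrays (grey) and for the probe used for each of the 10 genes (red); dashed lines mark ratios of 0.66 and 1.5. Fbxo32, Klhl24 and Mxd4 lie below -2.5 on the log2 scale (-3.48, -2.73 and -2.57), Cited2 stands apart at higher signal (-1.47), and Ccng2, Sesn3 and Foxo1 lie inside the dashed lines.

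Ordered by ratio at the probe used, the values ran as follows. Fbxo32 (0.0893) was followed by Klhl24 (0.151) and Mxd4 (0.169), then by Cited2 (0.361) and Pik3ip1 (0.508). Irs2 (0.600) and Sesn1 (0.608) came next, and Ccng2 (0.693), Sesn3 (0.806) and Foxo1 (0.919) closed the order. Irs2 and Sesn1 differed by less than the spot SD on the log2 scale (-0.74 and -0.72) and have no order. The probes of Mxd4 differed from each other by more than Fbxo32 did from Klhl24, Klhl24 from Mxd4, or Cited2 from Pik3ip1, so that these neighbours have no firm order either. Klhl24 had a higher ratio than Mxd4 with normexp (0.260 and 0.224). Of the 3 genes with ratios under 0.25, Fbxo32 rests on 1 probe, Klhl24 on 1 measured probe and 1 limit, and Mxd4 on 2 measured probes. Of the 16886 gene names measured on both arrays, 31 had such ratios. Over all 18837 tested gene names, which include those measured on 1 array only, 489 did, and there Fbxo32, Klhl24 and Mxd4 ranked 222nd, 327th and 350th from the lowest, although a spot at background gives a bound and no exact ratio.

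Position on the array was examined for each probe, because ratios were more scattered in the later rows, past row 192 of 384. Of all tested probes 9.68% had a ratio of at most 0.66, 11.9% in the later and 7.34% in the earlier rows. Of all tested probes with a ratio of at most 0.25, 92.0% lay in the later rows, which hold 51.6% of tested probes and, among the 3 genes with such ratios, the probes of Fbxo32 and Mxd4. Among probes well above background on both arrays, 45 had such a ratio, 38 in later and the rest in earlier rows. Of the 16 tested probes of the 10 genes, 7 of the 10 in later rows and 4 of the 6 in earlier rows had a ratio of at most 0.66. Cited2 (row 58), Pik3ip1 (row 127) and Klhl24 (row 185) were called lower at probes in the earlier rows. Fbxo32 (row 266), Mxd4 (rows 283 and 341), Sesn1 (row 213) and Irs2 (row 370) were read in the later rows alone.

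The spots themselves were even. Pixel SD over mean signal stayed under the limits of 0.26 on both arrays at every probe of the 10 genes that was well above background, the limits being the 99th percentile of well measured spots in the earlier rows. For Fbxo32 it was 0.139 on the control and 0.186 on the CHIR99021 array. The 8 spots beside that of Fbxo32 had a median log2 ratio of -0.05, and those beside the brighter Mxd4 probe 0.22. Within 3 rows and columns of the Fbxo32 spot, 4 spots differed by more than 4-fold while well above background on 1 array only, and 1 of these was bright on the control array. Around the Klhl24 probe used there were 0 such spots, around the brighter Mxd4 probe 1 and around the Sesn1 probe 2, and those near Mxd4 and Sesn1 were all bright on the control array. The part of array position in these ratios was not tested. With 1 array per condition, array and condition cannot be told apart.

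**Figure D3:**
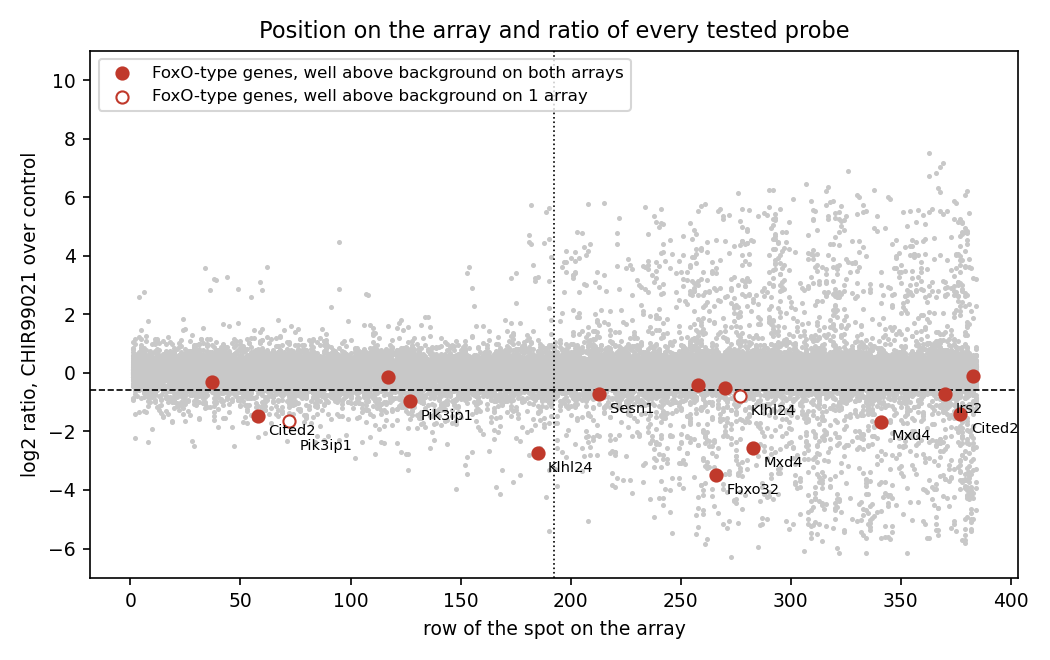
Log2 ratio of CHIR99021 over control against the array row of the spot for all 28066 tested probes (grey) and the 16 tested probes of the FoxO-type genes (red, open where only 1 array was well above background); the dotted line marks the middle row, the dashed line a ratio of 0.66, and gene names are written beside probes at or below it. The grey points spread more widely right of the dotted line, where 7 of the 11 named points lie, among them Fbxo32; the named points to its left are Cited2, Klhl24 and both Pik3ip1 probes.

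The array contained family relatives of these genes, which gave a varied picture. Of 18 relatives 15 were tested, of which 4 were lower, 1 was higher and 10 lay between the limits, with a median log2 ratio of 0.00. All 15 were measured on both arrays, and 26.7% of them were lower, where 5.76% of all gene names so measured were. Of the lower relatives, only Fbxo25 reached a Z-score of -2.0 (-2.09), and Foxo6 (-1.53), Mxd1 and Mxd3 did not. Among FoxO factors, Foxo3 had a ratio of 1.13 (826 to 897), Foxo6 a ratio of 0.455 at a dim probe (116 to 50.9) whose CHIR99021 spot was uneven, and Foxo4 was undetected, that is, well above background in neither condition. Sesn2, the third sestrin, had a ratio of 1.40, above 1 where Sesn1 and Sesn3 were below it. Ccng1, the relative of Ccng2, had a ratio of 0.903, and Ccni one of 1.00.

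Partners and antagonists of Myc differed among themselves. Mxd1 (0.649) and Mxd3 (0.516) were lower by ratio, both at dim probes (164 to 103 and 63.0 to 31.3). Their Z-scores of -1.14 and -0.60 did not reach -2.0, where that of Mxd4 was -6.64. Mxi1 had a ratio of 0.789 and Mnt one of 0.848. Max, the shared partner of the family, had a ratio of 1.41, Mlx one of 1.44 and Mga one of 1.26.

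The relatives of the insulin adaptor and of the atrophy ligase stood on different sides of 1. Irs1, the other main insulin receptor substrate, was higher at a ratio of 1.945 (3595 to 6741), where Irs2 was lower at 0.600. Fbxo25, the closest relative of Fbxo32, was lower at a ratio of 0.611 (1102 to 649). Trim63, the other classical muscle atrophy ligase, was undetected. Cited1 had a ratio of 1.17, and Cited4 was undetected. Probes of 1 gene disagreed for some relatives, with ratios from 0.798 to 1.17 for Foxo3, from 0.737 to 1.26 for Mga and from 1.44 to 1.67 for Mlx. Another probe of Mxd3 was well above background on 1 array only.

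Other genes known as FoxO targets in various tissues were examined as a list of 35. Of these 30 were tested, 7 (23.3%) were lower, 2 were higher and 21 lay between the limits. Of the 28 that both arrays measured, 6 were lower, where 5.76% of all gene names so measured were. The list's median log2 ratio was -0.39, and 21 of the 30 had a ratio below 1. The lowest ratios measured on both arrays were those of Klf2, a quiescence factor of lymphocytes and endothelium (0.211, 258 to 52.5), Rbl2, the pocket protein p130 of resting cells (0.418, 95.8 to 38.6), and the pro-apoptotic genes Bbc3 (0.560) and Bcl2l11 (0.582). Pck1, which encodes a gluconeogenic enzyme, was detected in control cells only, at an uneven spot, and was at least 1.28-fold lower, a bound that does not reach the limit. The Z-scores of Rbl2 (-1.33), Bcl2l11 (-1.77) and Pck1 (-0.99) did not reach -2.0, while those of the other lower genes of this list did. Higher were Ddit4 (2.445) and Bnip3 (2.37), which also respond to hypoxia. The cell cycle inhibitors Cdkn1b (0.717) and Cdkn1a (1.17) and the autophagy genes Map1lc3b (0.695), Gabarapl1 (0.711) and Ulk1 (0.717) lay between the limits.

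Genes of the PI3K, Akt and SGK pathway lay mostly between the limits. Of 30 such genes 29 were tested, and 3 (10.3%) were lower, 1 was higher and 25 lay between the limits, with a median log2 ratio of 0.05. The lower share over all tested gene names was 9.67%. All 3 lower genes were among the 28 that both arrays measured, where the share over all gene names was 5.76%. The lower genes were Deptor, an inhibitor of mTOR (0.282, 699 to 190.2), Sgk1, a kinase that phosphorylates FoxO proteins (0.356, 12124 to 4155), and the catalytic subunit Pik3cb (0.546). A further Deptor probe measured on both arrays gave 0.269. The Z-score of Pik3cb (-1.90) did not reach -2.0, while those of Deptor (-4.59) and Sgk1 (-5.26) did. The higher gene was Irs1. Akt1 (1.35), Akt2 (1.04) and the targets of the compound, Gsk3a (1.16) and Gsk3b (0.903), lay between the limits.

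Direct regulators and partners of the 10 genes were read against 9.67% lower and 8.05% higher over all tested gene names, shares at which lists of this length hold few calls. Among 16 tested regulators and cofactors of FoxO proteins, which include 14-3-3 proteins, the export receptor Xpo1 and the deacetylases Sirt1 and Sirt2, 0 passed either limit at the brightest probe, and ratios ran from 0.812 to 1.41. A dimmer Sirt1 probe was well above background on 1 array only. The 10 genes of the GATOR complexes and their arginine sensors ran from 0.817 to 1.33, again with 0 past a limit. Among 7 tested genes listed as HIF and CBP partners of Cited2, a list that also holds the HIF target Vegfa, 3 passed a limit. Epas1, which encodes HIF-2α, was lower (0.418), while Hif1a (1.59) and its target Vegfa (1.73) were higher. The probes of Vegfa, all measured on both arrays, ran from 0.879 to 1.79, on both sides of 1. All 11 proliferation genes lay between the limits, from Mki67 at 0.856 to Ccne1 at 1.37.

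**Figure D4:**
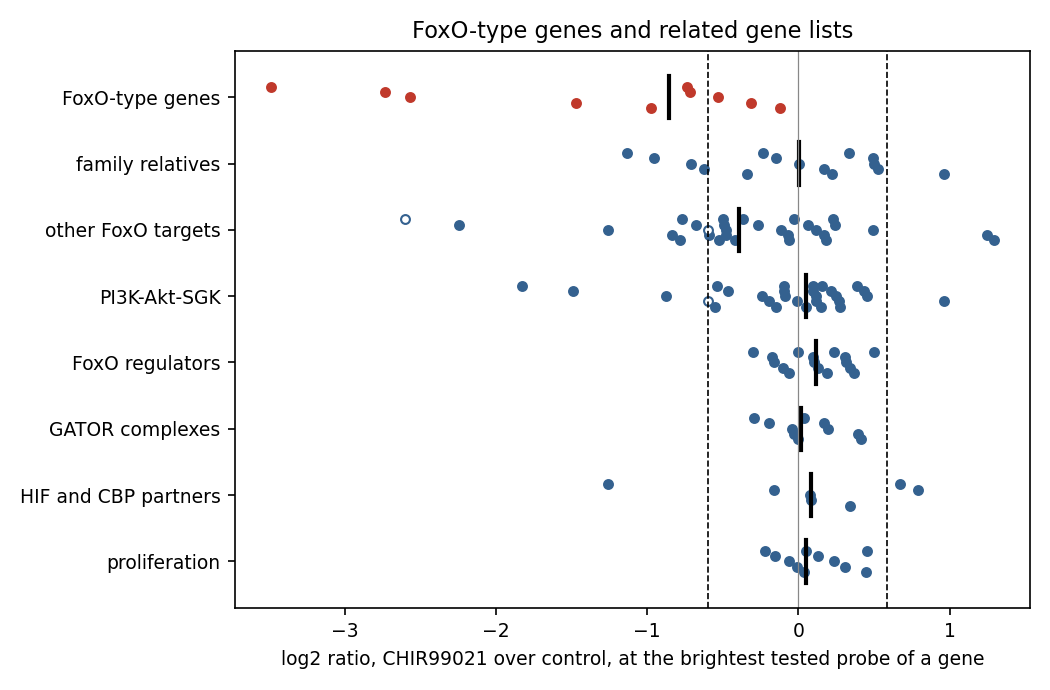
Log2 ratio of CHIR99021 over control at the brightest tested probe of each gene, for the 10 FoxO-type genes (red) and 7 related lists (blue, open where 1 array was not well above background); black bars are medians and dashed lines mark ratios of 0.66 and 1.5. The FoxO-type genes, chosen by these ratios, have a median of -0.86, the other FoxO targets one of -0.39, and the remaining lists lie around 0.

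The promoters of the FoxO-type genes were searched for short motifs, since the genes lay on the same side of 1. RefSeq promoters of GRCm38.p6, from 250 bases before to 50 after a gene's start, were matched for 8 of the 10 genes by symbol, in 9 sequences because Sesn1 has 2 entries. Fbxo32 and Klhl24, which had the lowest ratios, had no match and were not searched. The FoxO consensus GTAAACA, sought on both strands, occurred in 1 of the 9, against 3.65% of 32851 promoters. The insulin response element core CAAAACA occurred in 2 of the 9, against 6.28%. The E-box CACGTG, which Mxd4 and Myc complexes bind, occurred in 3 of the 9, those of Cited2, Irs2 and Mxd4, against 7.15%. The TCF/LEF letters ATCAAAG or TTCAAAG occurred in 0 of the 9, against 8.65%. The matches that resemble forkhead sites are shown with their surroundings, 5′ to 3′ on the strand of the gene and with the motif in capitals, which in Sesn1 and Irs2 lies on the opposite strand and so reads in reverse complement. The match of Sesn1 begins 22 bases past the listed start, those of Ccng2 and Irs2 16 and 37 bases before it.
Sesn1, chr10:41810585-41810614, plus strand: gaaccttctacTGTTTACcagccttttggg
Ccng2, chr5:93267546-93267575, plus strand: cgtcgcagactCAAAACAaaaacaaggggt
Irs2, chr8:11008948-11008977, minus strand: gagtcacgtgtTGTTTTGctcttagttcag
The Irs2 window also holds the E-box, 1 base apart from the motif in capitals. A match of letters is a description and not a site of binding. These promoters were rich in G and C, with a median of 62.7% against 52.7% over all promoters. They held a median of 24 CG pairs against 7 over all promoters. The E-box letters include a CG pair, and the shares over all promoters were not matched for composition.

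As a check of the treatment, Lef1 signal went from 239 to 690.48, a ratio of 2.997, and Tcf7 had a ratio of 1.55, Axin2 was at least 1.66-fold and Nkd1 at least 25.8-fold higher at probes not well above background in control cells, that of Nkd1 at an uneven CHIR99021 spot (0.401), and Sp5 was undetected. Of 59305 spots, 49.8% on the control and 48.3% on the CHIR99021 array were well above background, and 0 were saturated. Of 9 epithelial markers, 3 were well above background on both arrays, Krt5 in treated cells alone (at least 7.24-fold higher, at an uneven spot of 0.323), and Krt8, Krt19, Cdh1 and Epcam on neither, Krt18 in control cells alone (25.7 to 20.4), whereas all 8 mesenchymal markers and all 3 leukocyte markers were on both. Of 6 skeletal muscle markers, 1 (Acta1, ratio 0.764) was well above background, with Myod1, Myog, Des, Ckm and Myh3 on neither array, and of 3 endothelial markers Cdh5 and Kdr on neither. The summed scaled signal changed from 951 to 893 for the mesenchymal, from 5.90 to 7.49 for the epithelial, from 17.7 to 16.5 for the leukocyte, from 1.56 to 1.19 for the muscle and from 0.0614 to 0.0409 for the endothelial markers. Bright genes carried these sums and single markers differed in direction. Col1a1 (0.982) and Col1a2 (0.929) made up most of the mesenchymal sum, while Twist1 (1.55) and Msx1 (1.54) were higher. Itgam (0.862) was below 1, and the other leukocyte markers Ptprc (1.07) and Cd68 (1.24) above it. Trp63 (2306 to 2896), with a dimmer probe detected on 1 array only, made up most of the epithelial sum. The part of these cell type markers in the ratios above was not tested. In RNA of a whole culture, fewer cells that express a gene and less RNA per cell cannot be told apart.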

How the data were processed

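Total RNA of mDE6 cells was amplified, labelled with Cy3 and hybridised to Agilent mouse arrays, 1 per condition. The deposited spot intensity values had been background-subtracted by the authors with Feature Extraction (10.7.1.1 in the file headers, 9.5.1.1 in the submitters' processing notes) without normalization between arrays. A second deposited table holds intensity values with equal distributions in both columns, by a method not given in the sources used here, and served as an alternative. The methods name a human array, whereas the file headers name a mouse design. From the deposited intensities, control spots and outlier spots were left out, spots of a probe were averaged on the log2 scale relative to each array's 75th percentile, and the 28066 probes that stood well above background in either condition were kept as tested. Limits ("at least N-fold") compare the measured signal with the higher of the dim probe's own and the lowest signal well above background on that array. They are nominal, since some spots over that lowest signal were not well above background, such as Insr at 30.9 against 26.3 on the CHIR99021 array. With 1 array per condition there was no statistical test. Calculations used Python 3.11.15, numpy 2.4.6, pandas 2.3.3, matplotlib 3.10.9 and limma 3.58.1 in R 4.3.3 (normexp, offset 50), and were tested on simulated data. The 10 genes and the gene lists were chosen with earlier results of these data known. Named from each list were all family relatives, up to 4 of the lowest and highest genes past a limit on both arrays, and textbook members in between, the last picked after their values were seen. Of 165 list genes, 2 were on the array under older names. Alternatives changed scaling, background correction, filters, floors, the probe rule, spot evenness, array rows and thresholds. Values of some list genes are not reported here.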

Additional observations from a re-analysis of the deposited data

How the results depend on the processing

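No paired analysis was possible because only 1 array was hybridised per condition. Under the 13 alternatives, each gene of the 10 that had a value kept a ratio below 1, and the same 7 genes stayed at or under 0.66 wherever they had one. The earlier rows alone hold probes for 5 of the genes and left 3 lower, and a 2-fold limit left 4; the count of higher genes stayed at 0. Over the 10 genes and these alternatives, 44 ratios shifted beyond the spot SD of 0.03 on the log2 scale, 81 did not, and 0 crossed 1. These are not independent checks. The filters on dim probes, the floor and the evenness limit kept the same probes and returned the main ratio for each of the 10 genes. Scaling by another single factor per array moved all 10 by the same amount on the log2 scale.

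The median log2 ratio of the 10 genes became -0.89 with quantile normalization and with the authors' table, -0.91 without scaling and with the percentile over probes detected on both arrays, -0.80 with normexp, -1.02 as the mean over probes, -0.77 at the probe nearest to a ratio of 1 and -0.98 in the earlier rows. That of the other FoxO targets, -0.39, became -0.44 with the percentile over detected probes, -0.45 without scaling, -0.23 with normexp, -0.32 with probes detected on both arrays, -0.26 with no filter, -0.26 at the probe nearest to 1 and -0.48 in the earlier rows. That of the PI3K, Akt and SGK genes, 0.05, became -0.0477 with quantile normalization and with the authors' table, 0.00188 with the percentile over detected probes, 0.000266 without scaling and 0.0168 as the mean over probes. Fbxo32 ran from 0.0861 to 0.174, Klhl24 from 0.145 to 0.574 and Mxd4 from 0.163 to 0.315. Normexp gave the highest value for Fbxo32, and the cause was not tested. The probe nearest to 1 gave it for the others, with Klhl24 there read at a probe that gives only a limit. With no filter, the median of all gene names was 0.18 in place of 0.02. Signal over background limits the dimmer Klhl24 and Pik3ip1 probes to bounds. The mean over probes took them as exact ratios, with 0.294 for Klhl24 and 0.406 for Pik3ip1.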
